A study of Mus musculus with 2 samples.

Results

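The genes that bring glucose into the cell, break it down to lactate and store it as glycogen were examined in the heart of the mouse. They were taken as a list of 38 symbols out of 55536 annotated genes, and all 38 symbols were found. The list covers glucose transport, every reaction from hexokinase to lactate dehydrogenase, lactate transport, and the synthesis and breakdown of glycogen. Total RNA was depleted of ribosomal RNA and sequenced from heart tissue of 2 female B6CASTF1/J mice aged 25 days, which are replicates 1 and 2 of a single group. B6CASTF1/J mice are hybrids whose parents were an inbred laboratory mouse and a mouse of wild descent. Neither animal carried a treatment or an engineered allele according to the labels, so no conditions were compared, and ratios between the animals describe the spread between these samples. The labels give both samples the same donor identifier but separate animal numbers, and they were taken as separate animals. ERCC spike-in RNAs were added to 300 ng of RNA for each library. Replicate 1 held 43190646 expected counts and replicate 2 held 42954475.

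Cells take up glucose through facilitative transporters and trap it by phosphorylation. Glycolysis then splits it into pyruvate, which either enters the mitochondrion or is reduced to lactate. Glycogen is a branched glucose polymer that heart and skeletal muscle keep as a local reserve. Most of these reactions are catalysed by several isozymes, encoded by separate genes that differ in kinetics, regulation and the tissues that express them. The adult heart draws most of its energy from fatty acids, and its glucose uptake is known for its response to insulin and contraction.

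Levels are given in TPM, an RNA level corrected for length and set to a common library total, for replicate 1 and then replicate 2. They come from the alignment-based gene tables unless the read-based tables, a second quantification of the same libraries, are named. A gene was called detected at 1 TPM or more in both animals. Of the 38 genes, 35 were detected, and the other three (Aldoc, Eno2 and Slc16a3) lay below this level. The median of the 38 genes was 53.0 ± 0.619 TPM (SD, n = 2), against 8.81 ± 0.424 TPM for the 10972 detected protein-coding genes of the nucleus. In both animals 15 of the 38 exceeded 100 TPM and 30 reached that genome-wide median. Together the list held 2.29% ± 0.0377 (SD, n = 2) of the TPM of nuclear protein-coding genes.

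**Figure D1:**
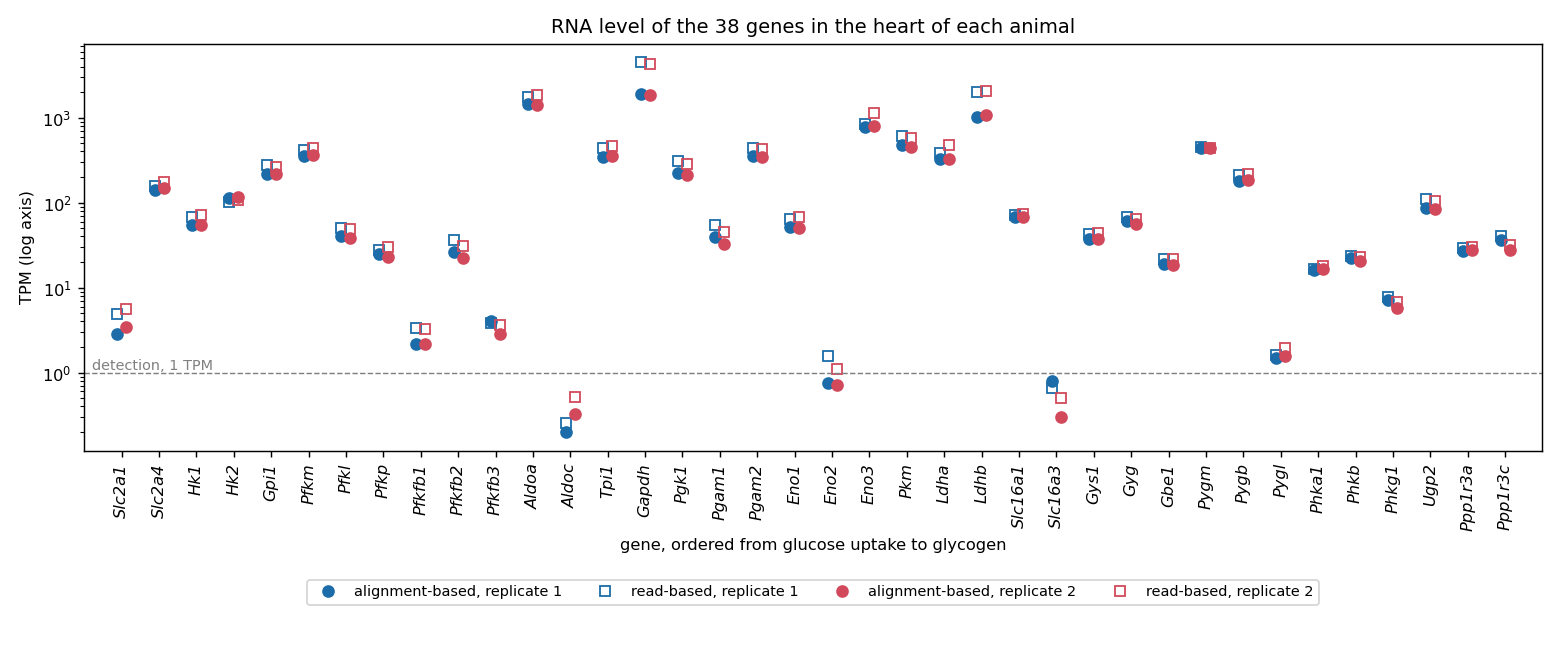
TPM of each gene on a log axis, ordered from glucose uptake to glycogen, in replicate 1 (blue) and replicate 2 (red), by the alignment-based (filled circles) and the read-based quantification (open squares). The 2 animals lie close together at nearly every gene, Gapdh and Ldhb stand higher in the read-based tables, and Aldoc and Slc16a3 are below the dashed line at 1 TPM in all 4 values.

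Markers of the labelled tissue were abundant. The 4 cardiomyocyte markers summed to 13884 and 14452 TPM. The 6 markers of fast skeletal muscle summed to 3.57 TPM in each animal, with 1 of 6 detected and 2 of 6, Myh1 and Myh4, listed at 0 in both. Other cells were present: 5 erythroid markers summed to 11299 and 10823 TPM, 4 endothelial markers to 176 and 147 TPM, 4 fibroblast markers to 272 and 235 TPM, and 3 smooth muscle markers to 180.3 and 130.6 TPM. The 5 hepatocyte markers differed most between the animals, with sums of 2.83 and 25.9 TPM. In whole tissue, fewer cells of a type and less RNA per cell cannot be told apart, and the levels below are sums over all these cells.

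The muscle or heart form led nearly every step at which the list held more than 1 isozyme. At all 11 such steps the same gene had the higher TPM in both animals. With 2 animals, an exact two-sided test that flips the sign within each animal cannot give a p below 0.5, so each order is set against the spread between the animals instead.

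**Figure D2:**
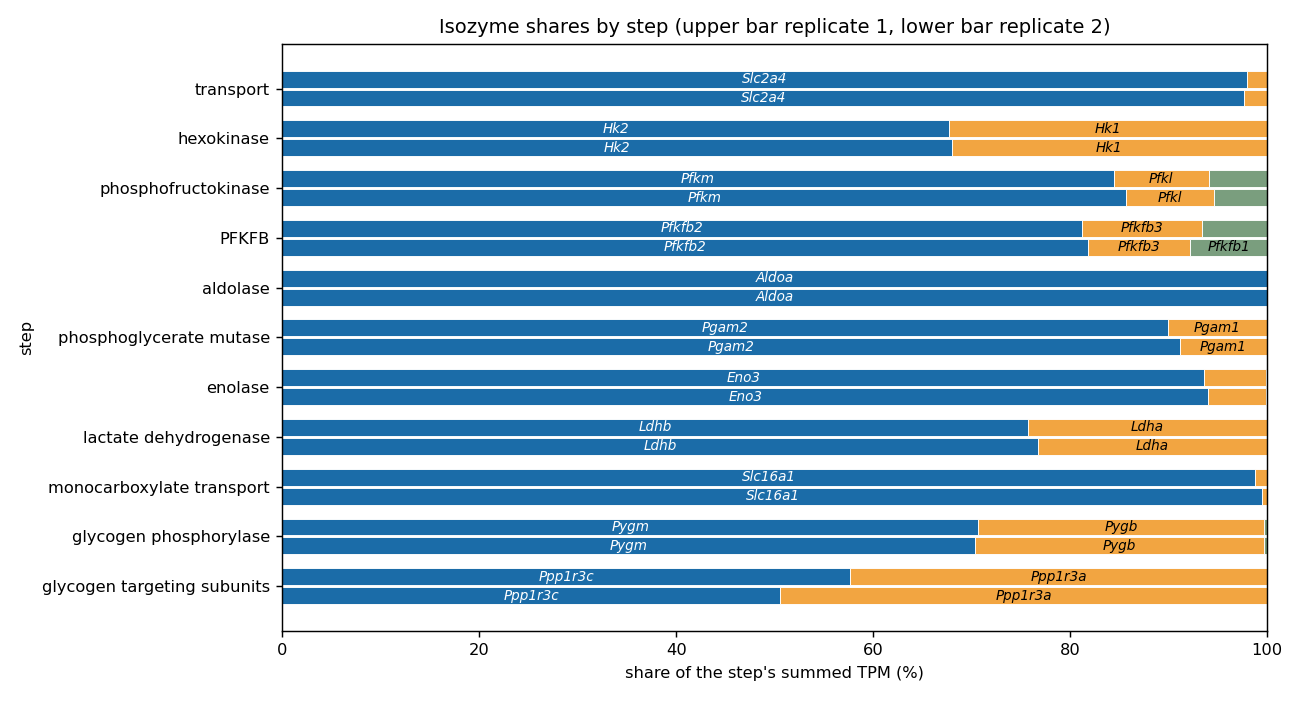
Share of the summed TPM of each step held by each isozyme, with the leading gene in blue, the next in orange and the lowest in green; the upper bar of each pair is replicate 1. A single gene holds over 80% of 7 of the 11 steps in both animals, and only the 2 glycogen-targeting subunits come near to equal shares.

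Glucose transport was dominated by Slc2a4 (ENSMUSG00000018566.14), which encodes GLUT4, the transporter that insulin moves to the surface of muscle and fat cells. It stood at 141 and 147 TPM. Slc2a1, which encodes the basal transporter GLUT1, stood at 2.82 and 3.42 TPM. The ratio of Slc2a4 to Slc2a1 was 46.4 ± 4.87 (SD, n = 2), and 31.7 ± 0.960 in the read-based tables. Adding 4 more transporters left Slc2a4 with 88.0% and 89.0% of the step. Among these, Slc2a10 was at 1.59 and 1.53 TPM, Slc2a12 (7.68 and 6.82 TPM) and Slc2a8 (6.16 and 5.80 TPM) were above Slc2a1 in each animal, and Slc2a3, best known from neurons, was under 1 TPM. In the read-based tables Slc2a12 was at 4.87 and 5.39 TPM against 4.84 and 5.57 TPM for Slc2a1, so this order turned in replicate 2.

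Hexokinase traps glucose as glucose 6-phosphate. Hk2, the insulin-responsive muscle form, was at 114 and 117 TPM, and Hk1, the form found in most tissues, at 54.46 and 54.95 TPM. The lead of Hk2 was modest, with a ratio of 2.11 ± 0.0231 that fell to 1.49 ± 0.0106 in the read-based tables. Hk3 and Hkdc1 were below 1 TPM. Gpi1, which turns glucose 6-phosphate into fructose 6-phosphate and has no isozyme, was at 218 and 215 TPM.

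Phosphofructokinase commits the sugar to glycolysis. The muscle subunit Pfkm stood at 356 and 366 TPM, the liver subunit Pfkl at 40.8 and 37.9 TPM, and the platelet subunit Pfkp at 24.8 and 23.1 TPM. Pfkm thus held 84.4% and 85.7% of the step. The bifunctional PFKFB enzymes make and remove fructose 2,6-bisphosphate, the strongest activator of phosphofructokinase. Pfkfb2, the form whose kinase activity is raised by phosphorylation in heart, led with 26.6 and 22.6 TPM. Pfkfb3, an inducible form, was at 4.01 and 2.87 TPM, Pfkfb1 at 2.15 TPM in each animal, and Pfkfb4 below 1 TPM. Tigar, which removes fructose 2,6-bisphosphate, was at 19.4 and 18.0 TPM, below Pfkfb2 in both animals. In the read-based tables the gap was wider, with Tigar at 19.5 and 18.2 TPM and Pfkfb2 at 36.3 and 30.8 TPM.

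Gapdh and Aldoa, in the middle of glycolysis, had the highest levels of the list in the alignment-based tables. Aldoa, which encodes the muscle aldolase that splits fructose 1,6-bisphosphate, was at 1431 and 1420.5 TPM. Aldoc, the brain aldolase, was at 0.20 and 0.33 TPM, so Aldoa held nearly all of the pair in the list. Tpi1, which interconverts the triose phosphates, was at 348 and 356 TPM. Gapdh, which makes NADH and 1,3-bisphosphoglycerate, had the highest level of all 38 genes at 1889 and 1825 TPM, and Pgk1, which forms ATP in the next reaction, was at 225 and 213 TPM. Pgam2, the muscle phosphoglycerate mutase, was at 355 and 340.0 TPM, against 39.7 and 33.0 TPM for the broadly expressed Pgam1. Eno3, the muscle enolase, was at 780.3 and 805 TPM, against 52.4 and 50.2 TPM for Eno1 and 0.75 and 0.72 TPM for the neuronal Eno2.

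Each of these muscle forms stood far above its partner in both animals. Pgam2 exceeded Pgam1 by 9.63 ± 0.973 fold, and Eno3 exceeded Eno1 by 15.5 ± 0.817 fold (SD, n = 2). The testis genes Pgk2 and Eno4 were listed at 0 in both animals, and Gapdhs, the sperm form, at 0.05 and 0. Bpgm, which makes the 2,3-bisphosphoglycerate of red blood cells, stood at 24.4 and 20.9 TPM. The part of the erythroid RNA described above in this level was not tested.

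Pyruvate kinase, the last step of glycolysis, is made from Pkm in alternative forms that differ in a single exon. M1 is the form of adult muscle and brain and is active without an activator, and M2, found in embryos and many proliferating cells, is stimulated by fructose 1,6-bisphosphate. Pkm as a whole was at 474 and 457 TPM. The sequences below are the alternative exons, shown because the choice between them sets the isozyme. They come from the GENCODE M21 transcripts on mm10, plus strand, 5′ to 3′, and capitals mark the bases that differ between them. The M1 exon lies at chr9:59675029-59675195 and the M2 exon at chr9:59675568-59675734, both coding and each the exon numbered 9 of its transcript, with 372 bases between them.
M1 exon (Pkm-202): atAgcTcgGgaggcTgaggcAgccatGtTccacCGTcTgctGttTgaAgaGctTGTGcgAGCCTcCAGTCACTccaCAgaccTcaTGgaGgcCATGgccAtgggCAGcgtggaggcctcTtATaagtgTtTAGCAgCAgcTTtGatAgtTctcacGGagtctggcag
M2 exon (Pkm-201): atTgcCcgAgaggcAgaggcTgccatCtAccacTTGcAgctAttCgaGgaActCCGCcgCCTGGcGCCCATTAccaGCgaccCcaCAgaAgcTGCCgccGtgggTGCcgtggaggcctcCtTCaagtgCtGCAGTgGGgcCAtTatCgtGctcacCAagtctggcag
Both exons are 167 bases long and share 103 of those bases (61.7%).

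Both forms of Pkm were assigned in nearly equal amounts. Pkm-202, the M1 transcript, held 53.3% and 51.7% of the gene, or 253 and 236 TPM. Pkm-201, the M2 transcript, held 45.1% and 47.0%, or 214 and 215 TPM. M1 was thus ahead in both animals by the alignment-based tables. In the read-based tables M1 held 44.5% in each animal, and M2 43.0% and 47.4%, so the order turned in replicate 2. The annotated transcripts differ elsewhere too. Pkm-201 begins 205 bases upstream of Pkm-202 and ends 186 bases downstream of it. The part of these ends in the split was not tested, and reads over the exons alone were not analysed here.

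Lactate dehydrogenase interconverts pyruvate and lactate. Ldhb, which encodes the heart subunit, was at 1026 and 1079 TPM, and Ldha, which encodes the muscle subunit, at 329 and 326 TPM. Ldhb exceeded Ldha by 3.21 ± 0.134 fold, and by 4.77 ± 0.567 fold in the read-based tables. In the read-based tables, transcripts with a complete coding sequence stood at 717 ± 48.4 TPM for Ldhb and 366 ± 4.72 TPM for Ldha, a smaller lead. Of the steps with several isozymes from aldolase to lactate dehydrogenase, this was the 1 at which the skeletal muscle form did not lead. Ldhc, the testis form, was listed at 0, and Ldhd, which acts on D-lactate, was at 9.64 and 9.30 TPM.

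The alignment-based and the read-based tables were led by Ldha transcripts with different starts, so the data do not settle which start was used. The sequences before these starts are shown for that reason beside that of Ldhb. Ldha-202 held 97.8% and 99.3% of Ldha in the alignment-based tables, and Ldha-201, which starts further downstream, 0% and 0.3%. The read-based tables split the gene otherwise, with 41.1% and 31.1% for Ldha-202 and 49.7% and 36.1% for Ldha-201. The 250 bases before the RefSeq start nearest to each leading transcript follow, on GRCm38.p6 and 5′ to 3′ on the strand of the gene. Capitals mark ACGTG, the core of the hypoxia response element, CACGTG, the E-box, and GGGCGG, the core of the GC box, on either strand.
Ldha-202, chr7:46845554-46845803, plus strand: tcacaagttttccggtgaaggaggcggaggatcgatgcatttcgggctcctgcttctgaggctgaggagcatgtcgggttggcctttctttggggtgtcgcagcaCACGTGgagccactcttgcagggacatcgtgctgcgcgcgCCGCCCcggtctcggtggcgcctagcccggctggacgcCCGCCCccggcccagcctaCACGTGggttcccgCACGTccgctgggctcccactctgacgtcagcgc
Ldha-201, chr7:46846832-46847081, plus strand: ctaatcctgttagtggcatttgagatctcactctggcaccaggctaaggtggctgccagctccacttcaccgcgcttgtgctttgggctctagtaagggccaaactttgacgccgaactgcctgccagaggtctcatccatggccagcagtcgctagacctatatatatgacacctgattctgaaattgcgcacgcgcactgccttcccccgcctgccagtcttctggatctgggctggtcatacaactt
Ldhb-201, chr6:142507958-142508207, minus strand: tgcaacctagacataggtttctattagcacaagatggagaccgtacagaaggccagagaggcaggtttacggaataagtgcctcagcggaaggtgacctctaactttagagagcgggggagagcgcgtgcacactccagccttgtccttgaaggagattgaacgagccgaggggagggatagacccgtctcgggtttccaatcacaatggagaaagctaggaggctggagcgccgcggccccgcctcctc
The window before Ldha-202 held 2 copies of CACGTG, 1 more ACGTG and 2 copies of GGGCGG. None of these letters was found before Ldha-201 or Ldhb-201.

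Across the list, RefSeq promoter windows (250 bases before to 50 bases after a start) were found for 37 of the 38 genes, 55 windows in all; Slc2a4 had none. ACGTG on either strand was in 25 of the 55 windows (45.5%), against 19.6% of all 32851 windows, and every CACGTG also counts as ACGTG. The E-box CACGTG was in 7 windows (12.7%, against 7.15%), in Gyg, Ldha, Pfkfb2, Pfkfb3, Pfkm, Ppp1r3c and Slc16a1. GGGCGG was in 29 windows (52.7%, against 35.7%) and TATAAA in 4 (7.27%, against 13.6%). The windows of the muscle forms differed among themselves. ACGTG was in the windows of Pygm and Hk2 and in some but not all windows of Pfkm and Aldoa. Eno3 and Pgam2 held none of the motifs searched. Which of the starts of Pfkm and Aldoa was used in the heart was not tested. The window of Ldhb held none either. Windows of the same gene can overlap, and no test was run on these counts.

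Lactate leaves and enters cells through monocarboxylate transporters. Slc16a1, which encodes MCT1, was at 67.45 and 67.44 TPM. Slc16a3, which encodes MCT4, the exporter of glycolytic muscle fibres, was at 0.79 and 0.30 TPM, and Slc16a7, which encodes MCT2, at 5.11 and 5.20 TPM. MCT1 thus held 98.8% and 99.6% of the pair in the list. Bsg, which encodes basigin, the partner that carries MCT1 to the membrane, was at 475 and 458 TPM.

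Glycogen synthesis starts from glucose 1-phosphate. Pgm1, which makes it from glucose 6-phosphate, was at 93.8 and 98.7 TPM, and Ugp2, which activates it to UDP-glucose, at 86.07 and 85.35 TPM. Gyg, which encodes glycogenin, the protein primer of the polymer, was at 60.8 and 55.9 TPM. Gys1, the muscle glycogen synthase, was at 37.75 and 37.73 TPM, and Gys2, the liver synthase, at 0 and 0.04 TPM. Gbe1, the branching enzyme, was at 19.1 and 18.5 TPM. From Ugp2 to Gbe1 each enzyme of the route was lower than the one before it in both animals.

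Of the glycogen phosphorylases, which release glucose 1-phosphate from the polymer, 2 stood above all of these. Pygm, the muscle phosphorylase (ENSMUSG00000032648.14), was at 440 and 438 TPM, and Pygb, the brain form, at 181 and 183 TPM. Pygm exceeded Pygb by 2.41 ± 0.0273 fold (SD, n = 2), and Pygl, the liver form, was at 1.54 ± 0.0566 TPM. The lysosomal glycosidase Gaa was at 28.2 and 26.9 TPM.

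Phosphorylase kinase, the complex that switches phosphorylase on, was lower than its substrate. Its muscle regulatory subunit Phka1 was at 16.0 and 16.8 TPM, against 4.19 and 3.39 TPM for the liver subunit Phka2, and its second regulatory subunit Phkb was at 22.5 and 20.5 TPM. The catalytic subunits were at similar levels: Phkg1, the muscle form, was at 7.08 and 5.74 TPM, and Phkg2, the liver and testis form, at 7.29 and 6.73 TPM. Their ratio was 0.912 ± 0.0836 (SD, n = 2), and by expected counts, which are not corrected for length, Phkg1 was ahead in both animals (426 and 407 against 291 and 334), so no order is given for this pair. The Phkg1 locus overlaps Chchd2 on the same strand, which was at 406 and 413 TPM, and the part of shared reads in the level of Phkg1 was not tested.

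Glycogen-targeting subunits bring protein phosphatase 1 to glycogen, where it activates the synthase. Ppp1r3c, which encodes PTG, was at 36.5 and 28.0 TPM, and Ppp1r3a, which encodes the striated muscle subunit, at 26.8 and 27.4 TPM. The ratio of Ppp1r3c to Ppp1r3a was 1.36 in replicate 1 and 1.02 in replicate 2, and by expected counts, which are not corrected for length, Ppp1r3a was ahead. No order is therefore given for this pair. With the 5 other members of the family added, Ppp1r3b stood at 10.3 and 9.46 TPM and Ppp1r3d at 7.31 and 8.14 TPM, and the 3 others were below 2 TPM.

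Of 49 other genes of glucose metabolism listed for comparison, 32 were detected. Txnip, which restrains glucose uptake and is itself induced by glucose, was the most abundant of them after Bsg, at 131 and 202 TPM. The paralogous sensors of glucose phosphates that act on it, Mlxip and Mlxipl, were at 9.87 and 9.62 TPM and at 9.74 and 7.97 TPM. Gsk3a and Gsk3b, the kinases that inhibit glycogen synthase, were at 24.9 and 25.0 TPM and at 21.2 and 19.7 TPM. Of the AMP-activated kinase, Prkaa2 was at 30.9 and 31.3 TPM and Prkag2 at 11.4 and 10.3 TPM. Epm2a, which encodes the glycogen phosphatase laforin, was at 10.99 and 11.29 TPM. The gluconeogenic liver genes Fbp1 and G6pc were below 1 TPM, and Fbp2, the muscle form, was at 9.83 and 8.95 TPM. Also past 10 TPM were Hif1a, the oxygen-regulated factor that acts on ACGTG elements, at 21.6 and 20.1 TPM, G6pc3, at 15.49 and 15.05 TPM, and Pgm5, a relative of phosphoglucomutase at cell junctions, at 38.4 and 40.6 TPM.

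Summed over its isozymes, each reaction could be placed along the pathway. Transport stood at 147 ± 4.90 TPM, hexokinase at 170.1 ± 2.34 TPM, Gpi1 at 217 ± 1.75 TPM and phosphofructokinase at 425 ± 4.14 TPM (SD, n = 2). Aldolase rose above these at 1426 ± 7.13 TPM. Phosphoglycerate kinase was the lowest of the reactions after aldolase, at 219 ± 9.07 TPM, and enolase stood at 845 ± 15.8 TPM, pyruvate kinase at 466 ± 11.6 TPM and lactate dehydrogenase at 1380.0 ± 35.0 TPM. Lactate transport was at 68.0 ± 0.354 TPM, the lowest summed level of the route. The order of the first reactions depended on the transcripts counted. With transcripts of complete coding sequence alone, transport stood at 139 TPM, hexokinase at 135 TPM and Gpi1 at 117 TPM. The read-based tables gave such transcripts 150, 172 and 122 TPM, so Gpi1 was the lowest of these reactions in both. These are levels of RNA, and enzyme activity was not measured.

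The top of the list depended on which transcripts were counted. Gapdh lies at chr6:125161715-125166467 on the minus strand (mm10). Gapdh-208, a noncoding processed transcript of 483 bases, held 74.3% and 73.7% of the Gapdh TPM, and the coding Gapdh-201, of 1272 bases, 23.1% and 24.2%. Of the 483 bases of Gapdh-208, 444 are also in Gapdh-201. The read-based tables gave 0% to both and put 52.6% and 56.3% on Gapdh-207, 24.4% and 27.7% on Gapdh-203 and 18.2% and 9.4% on Gapdh-209. By expected counts Gapdh-208 and Gapdh-201 were nearly equal, with 18216 and 18040 against 17301 and 18120. Counting only transcripts with a complete coding sequence, Gapdh stood at 474 ± 0.622 TPM, below Aldoa (1377 ± 21.7 TPM), Ldhb (826 ± 38.9 TPM) and Eno3 (698 ± 17.4 TPM). The read-based tables gave such Gapdh transcripts 1130.1 ± 56.8 TPM, also below Aldoa at 1521 ± 14.8 TPM.

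**Figure D3:**
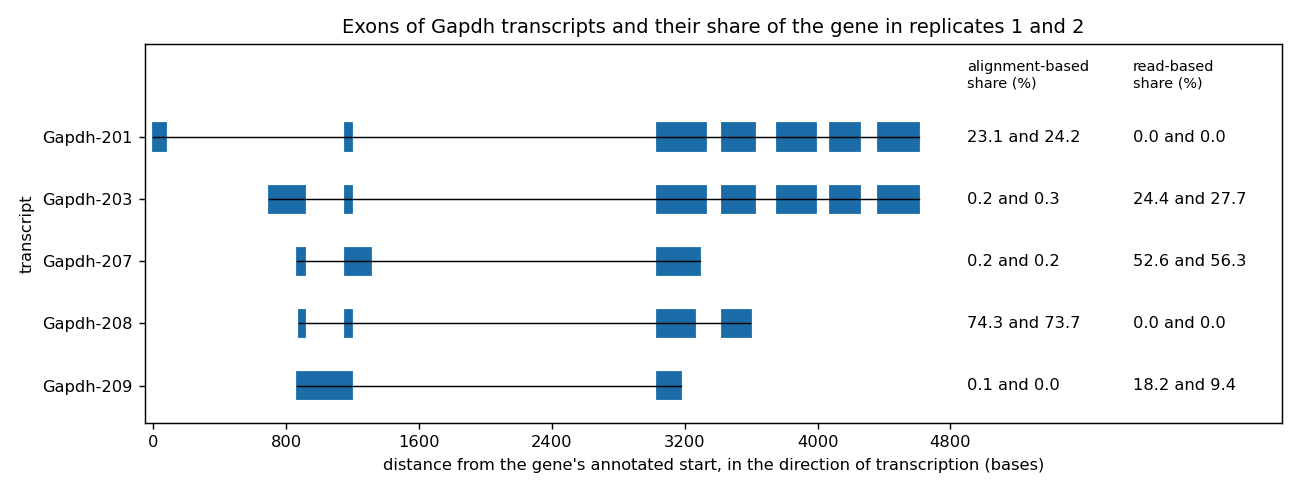
Exons (boxes) and introns (lines) of the 5 Gapdh transcripts that held at least 10% of the gene in either quantification, by distance in bases from the annotated start, with their shares of the gene in replicates 1 and 2 at the right. Both quantifications give most of Gapdh to short transcripts, but to different ones.

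Short or incomplete transcripts took a large share of some other genes. By the alignment-based quantification, 18 of the 38 genes had over 90% of their TPM in complete coding transcripts in both animals, and 7 had under 75%. Beside Gapdh, those 7 included Phkb (44.7% and 44.9%), Gpi1 (53.6% and 54.3%), Eno1 (56.3% and 57.4%) and Hk2 (71.3% and 71.2%). Hk2-202, a processed transcript of 594 bases, held 28.6% of Hk2 in each animal by TPM, with 544 and 577 of its counts, and 0.7% and 0.5% in the read-based tables. Ldhb-202, a fragment of 437 bases, held 21.3% and 20.0% of Ldhb, and 39.2% and 36.5% in the read-based tables. With complete coding transcripts alone, Hk2 held 60.8% ± 0.0566 of hexokinase in place of 67.8% ± 0.239, and Ldhb 71.8% ± 0.921 of lactate dehydrogenase in place of 76.2% ± 0.756 (SD, n = 2). All 11 steps kept their leading gene under this count.

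**Figure D4:**
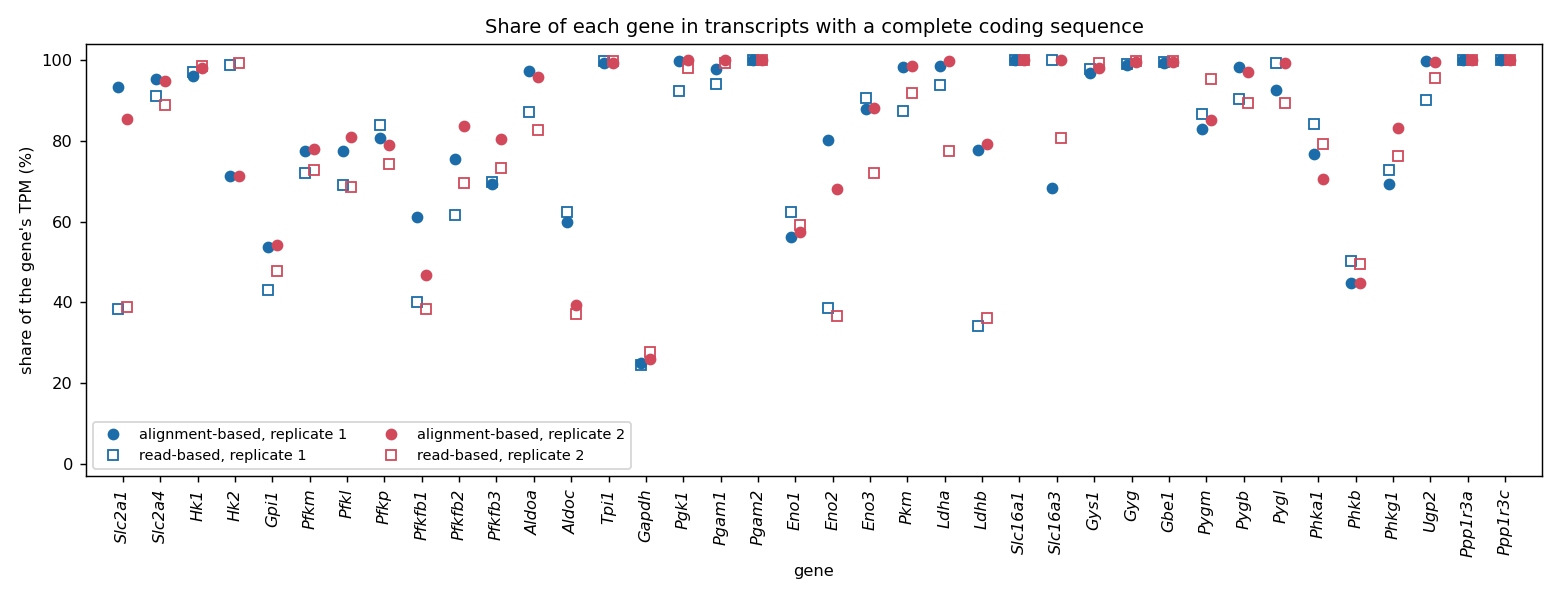
Share of each gene's TPM in transcripts with a complete coding sequence, in percent, for replicate 1 (blue) and replicate 2 (red) by the alignment-based (circles) and the read-based quantification (squares). Gapdh lies near 25% in all 4 values, and Ldhb and Slc2a1 drop in the read-based tables.

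Of the 34 genes with more than 1 annotated transcript, 20 had the same leading transcript in both animals by both quantifications. Within a quantification the animals matched more often, with 29 of 34 in the alignment-based and 30 of 34 in the read-based tables. Hk1 was led by Hk1-202 (59.9% and 64.7%) in the alignment-based tables and by Hk1-205 (41.7% and 40.0%) in the read-based tables. Gyg was led by Gyg-203 (95.5% and 97.7%) in the first and by Gyg-201 (70.8% and 73.1%) in the second. Gbe1 was led by Gbe1-201 (59.7% and 58.5%) and by Gbe1-203 (98.1% and 98.5%), although Gbe1-203 held 36.0% and 41.0% in the alignment-based tables. Eno3 was led by Eno3-201 (47.1% and 52.1%) and by Eno3-202 (86.4% and 49.0%). For Hk1, Gyg and Gbe1 the shares moved more between the quantifications than between the animals, whereas the read-based share of Eno3-202 also moved widely between the animals. Among the genes with the same leading transcript throughout, Gys1-201 held 96.8% and 98.0% in the alignment-based and 97.9% and 99.4% in the read-based tables. Slc2a4-201 held 94.1% and 93.4% in the first and 88.8% and 87.2% in the second. Aldoa-201 led in both as well, but with 92.5% and 91.4% against 61.2% and 67.2%. Pfkm was shared by Pfkm-201 (39.2% and 33.3%) and Pfkm-205 (38.3% and 44.8%), which begin at different starts, and the order of these turned between the animals.

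Some of the genes have near-identical copies among other annotated genes, so that their reads could be split. Copies with at least 95% identity over at least 200 bases of the coding sequence were annotated for 10 of the 38 genes. For Pfkfb2 the entry counted, Gm29427, overlaps the gene itself on the same strand, as does Gm49759 for Pkm. Gapdh had 79 such entries, with 79.5 and 80.9 TPM in all, or 4.21% and 4.43% of Gapdh. One of them, Gm7336, was at 17.7 TPM in each animal in the alignment-based tables and at 709 and 732 TPM in the read-based tables. Eno1b, whose sequence is 99.4% identical to Eno1, was at 20.95 and 20.72 TPM, and the copies of Eno1 summed to 57.0% and 59.5% of its own level, so Eno1 is uncertain. With its copies added, Eno1 held 9.28% ± 0.351 of the enolase step in place of 6.08% ± 0.301 (SD, n = 2), still below Eno3. Gm5537, a copy of Pgk1, was at 25.8 and 21.1 TPM in the alignment-based tables and listed at 0 in the read-based tables. The 28 other genes had no such copy, among them Slc2a4, Hk2, Pfkm, Aldoa, Pgam2, Eno3, Gys1 and Pygm.

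The read-based tables gave higher TPM than the alignment-based ones for 34 of the 38 genes in both animals. After each was rescaled to the TPM of nuclear protein-coding genes, 10 of the 38 were higher. Gapdh stayed 1.79 times and Ldhb 1.48 times higher in the read-based tables, and Hk2 was lower at 0.688 times.

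Between the animals, counts were scaled with TMM factors and compared in the 15839 genes whose mean count reached 10. A gene was counted as differing with an adjusted p under 0.05 (two-sided exact binomial test, Benjamini-Hochberg adjustment over all genes tested), a ratio of at least 2 and separate credibility intervals. By this rule 0.758% of all genes tested differed and 0 of the 38. At any ratio, 23 of the 38 genes had an adjusted p under 0.05, 5 higher in replicate 1 and 18 higher in replicate 2, against 20.3% of all genes tested and 10.2% in each direction. The same 23 had an unadjusted p under 0.05, against 4724 of the 15839 genes tested. This test takes in counting error only, so deeply counted genes reach a small p at small ratios. Of the 38 genes, 15 had a mean count of at least 10000, against 372 of the 15839 tested. The shares above were not matched for depth.

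The ratios themselves were small. The median log2 ratio of replicate 2 over replicate 1 was 0.06 over the 38 genes and 0.01 over all genes tested. Above 0 lay 28 of the 38 genes and 8188 of the 15839 tested. Among the 15 genes with at least 10000 counts, the median absolute log2 ratio was 0.09, and it was 0.09 for all 372 genes of that depth. Scaling to the ERCC spike-ins moved every log2 ratio by -0.11. The medians then were -0.04 over the 38 genes and -0.10 over all genes, and 12 of the 38 lay above 0. Of 16 with an adjusted p under 0.05 (26.1% of all genes) 13 were higher in replicate 1 and 3 in replicate 2. The shares of all genes in each direction were not counted under this scaling, so this split is not read as particular to the list. This scaling moves all genes by the same amount, so signs near 0 turned while the distance of the list from the median of all genes stayed as it was.

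**Figure D5:**
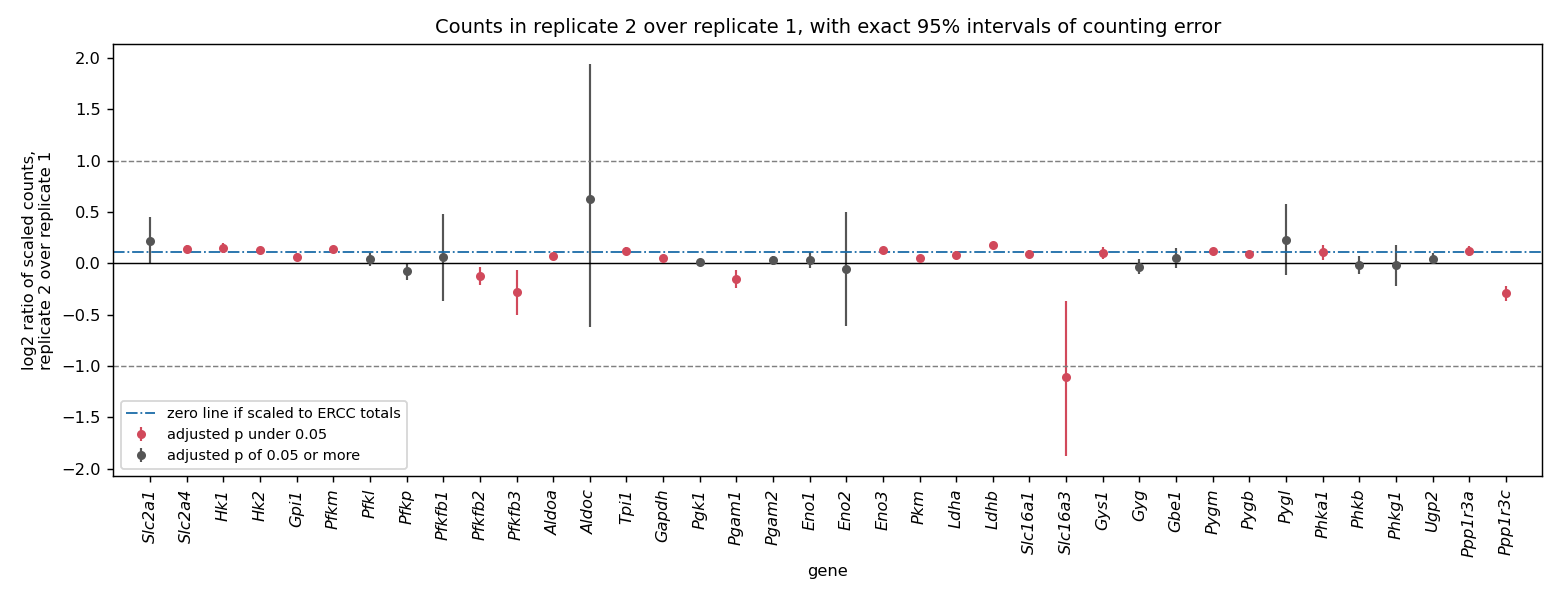
Log2 ratio of TMM-scaled counts in replicate 2 over replicate 1 for each gene, with exact 95% intervals that cover counting error only; genes with an adjusted p under 0.05 are red, dashed lines mark a ratio of 2, and the blue line is where 0 would lie after scaling to ERCC totals. Most points sit close to 0, and only Slc16a3 passes a dashed line, with a wide interval.

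Ldhb had the smallest adjusted p, with 35221 and 38681 counts, a log2 ratio of 0.18 and a value of 1.1e-62 by the exact binomial test. Slc2a4 had 11197 and 11954 counts (log2 ratio 0.14), and Pfkm and Eno3 had log2 ratios of 0.14 and 0.13. In replicate 2 the cardiomyocyte marker sum was higher, with Myh6 (9386 and 9899 TPM) and Tnnt2 (3375 and 3454.5 TPM) higher and Actn2 (732 and 719 TPM) and Ryr2 (392 and 379.5 TPM) lower. The endothelial, fibroblast and smooth muscle sums were lower in replicate 2, and the hepatocyte sum was higher. The part of these markers in the ratios was not tested. Ppp1r3c lay the other way, with 3241 and 2563 counts, and was 1.23-fold higher in replicate 1 (exact 95% interval 1.16 to 1.29). Pgam1 was 1.11-fold higher in replicate 1 (interval 1.05 to 1.18) with 2214 and 1928 counts, and Pfkfb3 1.22-fold higher (interval 1.05 to 1.41) with 407 and 324 counts. Slc16a3, the least counted but for Aldoc, had 51 and 23 counts and was 2.15-fold higher in replicate 1 (interval 1.29 to 3.68, adjusted p of 0.0155 by the exact binomial test). Its credibility intervals overlapped, at 0.762 to 1.65 and 0.352 to 1.03 TPM, so that it was not counted as differing; without that condition it would be, as 1.72% of all genes tested were. Without the minimum ratio 6 of the 38 would be counted (8.50% of all genes tested).

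Of the other genes of glucose metabolism, 40 were tested and 0 were counted as differing, against 0.758% of all genes tested. By the exact binomial test, 15 of the 40 had an unadjusted p under 0.05, against 4724 of the 15839 genes tested. An adjusted p under 0.05 was reached by 9 of the 40 (22.5%), near the 20.3% of all genes tested. Among the 3 of these 40 with at least 10000 counts, the farthest from 0 was Txnip, with 11319 counts in replicate 1 and 17909 in replicate 2. Its log2 ratio of 0.71 stayed above 0 after scaling to the spike-ins.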

How the data were processed

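Total RNA of the heart of 2 mice was analysed from 3 tables per animal. The alignment-based tables give expected counts and the read-based tables estimated counts, both deposited without normalization, per the file headers. TPM was calculated by the authors across all entries of a table, per the file headers. Deposited score columns bound each TPM by a credibility interval of unstated level. These intervals centre on the posterior mean TPM, and for 10 of the 38 genes the TPM lay outside its own interval. A percent column, deposited with the alignment-based transcripts, is the percentage of its gene that a transcript holds. Both quantifiers, not given in the sources used here, worked on mm10 and GENCODE M21 per the deposited listings.

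The 38 genes, the other lists and the tests were chosen with earlier results of these data known. All 38 genes are named, and of the other genes those detected that are isozymes of a step or above 10 TPM, and transcripts with at least 10% of a gene. Some of the other genes are not reported here. Symbols were matched through the annotation; Aldoa has a second identifier with 2 and 4 counts, left out. Read-based tables were summed to genes. Expected counts of 11 of the 38 genes were fractional and were rounded for the test. Scaling used TMM of edgeR 4.0.16 in R 4.3.3, with size factors of DESeq2 1.42.0, total counts and spike-in totals as alternatives. Copies were found with BLAST 2.17.0. Python 3.11.15 ran the remaining steps with pandas 2.3.3, scipy 1.17.1, numpy 2.4.6 and, for plots, matplotlib 3.10.9. The comparison between the animals was run on simulated counts with counting error only, without the condition on credibility intervals. It recovered 182 of 200 genes changed 4-fold, with 0 false calls, which does not bear on the spread between animals. Intervals at 95% cover counting error only, and reads without molecular identifiers are not independent molecules. Nothing says how the animals were raised or sampled, so differences between these samples may be technical. The p-values take in counting error only and do not measure the spread between animals. Sequences come from RefSeq (GRCm38.p6) and the GENCODE M21 transcripts. At this depth counting error alone is a few percent for most genes here, and far larger for the lowest genes. The quantifications differed by more for some genes. In replicate 1 Gapdh had 37401 counts in the alignment-based and 61434 in the read-based tables.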

Additional observations from a re-analysis of the deposited data

How the results depend on the processing

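Detection held 31 to 36 of the 38 genes over thresholds of 0.5 and 5 TPM, the read-based and posterior mean TPM, complete coding transcripts and each animal left out (35 in each case). All 11 steps kept their leading gene under every alternative except expected counts, where Ppp1r3a passed Ppp1r3c and 10 remained. The count of genes that differed between the animals was 0 under every scaling, count minimum and the read-based counts. It was 1 (Slc16a3) without credibility intervals, and 6 without a minimum ratio (Pfkfb2, Gapdh, Pgam1, Pkm, Ldhb and Ppp1r3c), where 8.50% of all genes were counted. The same leading transcript by both quantifications was found for 20 to 23 of the 34 genes. The read-based TPM moved 34 of the 38 levels by more than the SD between the animals, and complete coding transcripts moved 25. Of the 26 isozyme shares, 15 and 14 moved in these ways. The counts of complete coding transcripts and of added copies were chosen after seeing the data. No paired analysis was possible because both animals belong to a single group. With 2 animals every SD is imprecise, and depth limits Aldoc, Slc16a3, Eno2, Pfkfb1 and Pygl most, the 5 genes with the fewest counts.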
